A study of Mus musculus with 32 samples.

Results

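Hgsnat, Cat, Adssl1, Mknk2 and Igsf8 are 5 of the 45706 genes measured by RNA-seq in BV-2 cells overexpressing one of 3 miRNAs, with or without lipopolysaccharide (LPS). The 5 genes were taken by name from earlier results on these same libraries, where they were lower in cells with the miR-7a-5p mimic. The contrasts of miR-7a-5p with the other groups therefore chose them, and those contrasts are given below as a description with no test. Tests are given for the response to LPS and the effect of the other two mimics. The choice was made with results of all 8 groups in view, so these tests are not independent of it.

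A miRNA is a short RNA that guides an Argonaute protein to messenger RNAs, mainly by pairing of its seed, the bases near its 5′ end, with a complementary stretch in the 3′ untranslated region (3′ UTR), after which the messenger is translated less or degraded. The miRNAs miR-7a-5p and miR-29a-3p, and also miR-146a-5p, carry different seeds and so pair with different sequences. A mimic is a synthetic copy of the miRNA that is transfected into cells, and a scramble is a control oligonucleotide with no intended target. LPS, a component of the outer membrane of Gram-negative bacteria, is sensed by Toll-like receptor 4 and switches microglia to an inflammatory programme.

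The 5 genes have unrelated roles. Hgsnat encodes heparan-α-glucosaminide N-acetyltransferase, a lysosomal membrane enzyme needed for the breakdown of heparan sulfate. Cat encodes catalase, the peroxisomal enzyme that breaks down hydrogen peroxide. Adssl1 encodes an adenylosuccinate synthase, which acts in the synthesis of AMP from IMP. Mknk2 encodes a kinase that acts downstream of MAP kinases and phosphorylates the cap-binding factor eIF4E. Igsf8 encodes EWI-2, an immunoglobulin superfamily protein of the cell surface that associates with tetraspanins.

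BV-2 is an immortalised line of mouse microglia, which the labels describe as a wild-type glioblastoma line. There were 8 groups of 4 libraries: cells given vehicle (VEH) or 10 ng/ml LPS for 24 h and overexpressing a miRNA mimic (miR-7a-5p, or miR-29a-3p, or miR-146a-5p) or the scramble control, named VEH_scramble, VEH_miR-7a, LPS_scramble and so on. The labels do not say whether replicates came from separate cultures, while the study's methods count replicates of its BV-2 experiments as separate experiments. The 11 microglia and macrophage markers examined summed to between 1804 and 4237 CPM (counts per 1000000 counts of the library) in every library, led by Cd68, Csf1r and Ptprc, but C1qa was at 0 in 6 libraries and Tmem119 in 2. Sums of 4 markers each reached at most 1.65 CPM for astrocytes, 2.03 CPM for neurons and 11.6 CPM for oligodendrocytes. The level of each mimic inside the cells was not analysed here.

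Library totals ran from 1209070 to 20708560 counts. Of the 4 VEH_miR-7a libraries, which held 1209070 to 5182633 counts, replicates 2 to 4 stood apart, with more of their counts in structural RNA genes than any other library. The structural share was 28.9% ± 16.4 (SD, n = 4) in VEH_miR-7a, against 9.69% ± 2.16 (SD, n = 4) in VEH_scramble, and it stayed between 2.64% and 18.8% in the other 29 libraries. The lowest sum of microglia and macrophage markers was in a VEH_miR-7a library, and the group ran from 1804 to 3153 CPM, against 3033 to 4161 CPM in VEH_scramble. These sums are on library totals, which include the counts in structural RNA genes. The counts of the 5 genes in VEH_miR-7a were between 41 and 927. The fold changes of the 5 genes between VEH_miR-7a and VEH_scramble or LPS_miR-7a are therefore given with and without these libraries, and the part of the lower marker sums in them was not tested.

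To show what each mimic can pair with, the mature sequences are given here from RefSeq (GRCm38.p6), 5′ to 3′, with the seed (bases 2 to 8) in capitals. miR-7a-5p is made from 2 loci with the same mature sequence, Mir7-2 at chr7:78888295-78888317 on the plus strand and Mir7-1 at chr13:58392841-58392863 on the minus strand.
miR-7a-5p: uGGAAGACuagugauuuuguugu
miR-29a-3p: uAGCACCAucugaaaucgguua
miR-146a-5p: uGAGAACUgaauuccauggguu
The 3 seeds were all different, so the mimics form no shared seed group.

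One coding transcript of each gene (GENCODE M21, GRCm38) was searched on its own strand for GTCTTCC, the complement of bases 2 to 8 of miR-7a-5p, and for TCTTCCA, the complement of bases 2 to 7 followed by A. Where the 2 overlap they make the 8-letter match GTCTTCCA, which was counted once. Cat, Mknk2 and Igsf8 each held 1 such 8-letter match in the 3′ UTR, shown here as DNA with the match in capitals.
Cat: ttgcatcatGTCTTCCAaaagtaact
Mknk2: cactctgctGTCTTCCAgggttgggg
Igsf8: gtgttgactGTCTTCCAgccagtgcc
The matches lie at chr2:103454193-103454200 on the minus strand for Cat, chr10:80666768-80666775 on the minus strand for Mknk2 and chr1:172319602-172319609 on the plus strand for Igsf8. The Cat match is in 1 of the 2 annotated coding transcripts of that gene, whereas those of Mknk2 and Igsf8 are in all annotated ones (2 and 5). In the transcripts searched, the matches start at base 556 of the 907-base 3′ UTR of Cat, base 332 of the 1780-base 3′ UTR of Mknk2 and base 34 of the 273-base 3′ UTR of Igsf8.

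Hgsnat and Adssl1 held no match in the 3′ UTR of any annotated coding transcript, 681 bases and 329 bases long in the transcripts searched, and each held 1 match of 7 letters in the coding sequence.
Hgsnat: gccgacctcGTCTTCCcatggtttg
Adssl1: tttgtgactTCTTCCAactgcactg
These coding matches lie at chr8:25959587-25959593 on the minus strand and at chr12:112635451-112635457 on the plus strand. Igsf8 held a further coding match of 7 letters at chr1:172317356-172317362. Among 9986 genes tested under both treatments and with an annotated 3′ UTR, 24.5% held a match to the miR-7a-5p seed in the 3′ UTR, 4.01% held the 8-letter match, and 27.2% held one in the coding sequence. The median 3′ UTR of these genes was 1055 bases. The same search used TGGTGCT or else GGTGCTA for miR-29a-3p and AGTTCTC or else GTTCTCA for miR-146a-5p. For these mimics none of the 5 genes held a match in the 3′ UTR searched, where 18.1% and 19.2% of these genes held one. In the coding sequence, miR-29a-3p had 1 match in Hgsnat, 1 in Adssl1 and 3 in Igsf8, where 24.1% of these genes held one, and miR-146a-5p had 1 in Igsf8, where 18.9% did. A match is a stretch of letters and was not shown to be bound.

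**Figure D1:**
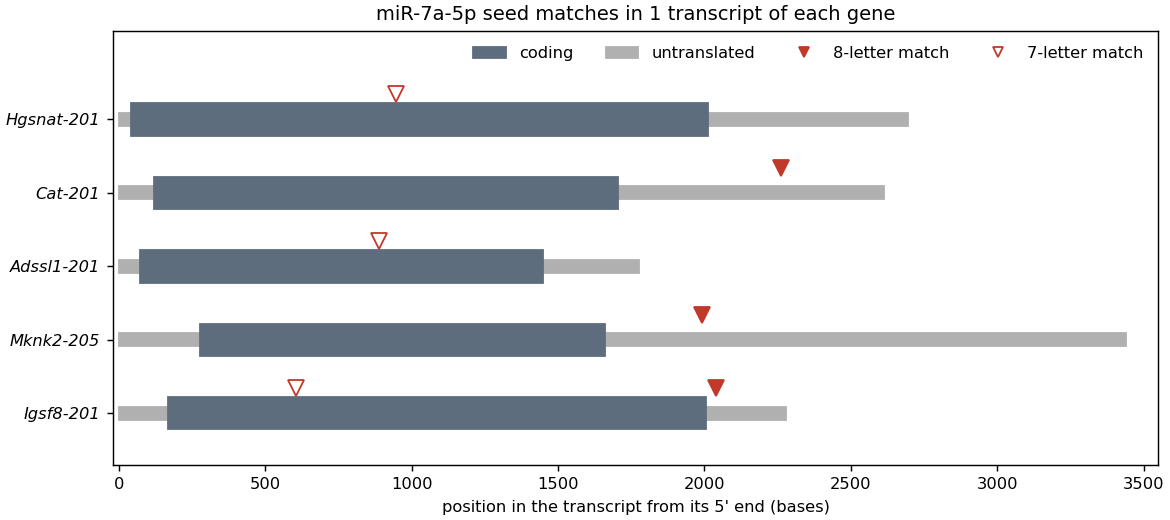
Position of matches to the miR-7a-5p seed along 1 transcript of each gene, in bases from the 5′ end. Thick bars are coding sequence, thin bars untranslated, filled triangles 8-letter matches and open triangles 7-letter matches. The filled triangles of Cat, Mknk2 and Igsf8 stand in the 3′ UTR, and the only triangles of Hgsnat and Adssl1 stand over the coding sequence.

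The genes themselves lie at chr8:25944453-25976753 (Hgsnat, minus strand, 18 exons in the transcript searched), chr2:103453849-103485160 (Cat, minus, 13 exons), chr12:112620045-112641360 (Adssl1, plus, 13 exons), chr10:80665327-80678112 (Mknk2, minus, 14 exons) and chr1:172261641-172319841 (Igsf8, plus, 7 exons). All 5 genes had a usable value in all 32 libraries and passed the filter on low counts in every comparison. In what follows, levels are CPM on library sizes scaled by the trimmed mean of M-values (TMM), per library in the order of replicates 1 to 4, and differences are log2 fold changes from limma voom with their standard error (SE). CPM is not divided by gene length, so levels are compared between groups and not between genes. In bulk samples such as these, fewer cells of a type and less RNA per cell cannot be told apart.

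**Figure D2:**
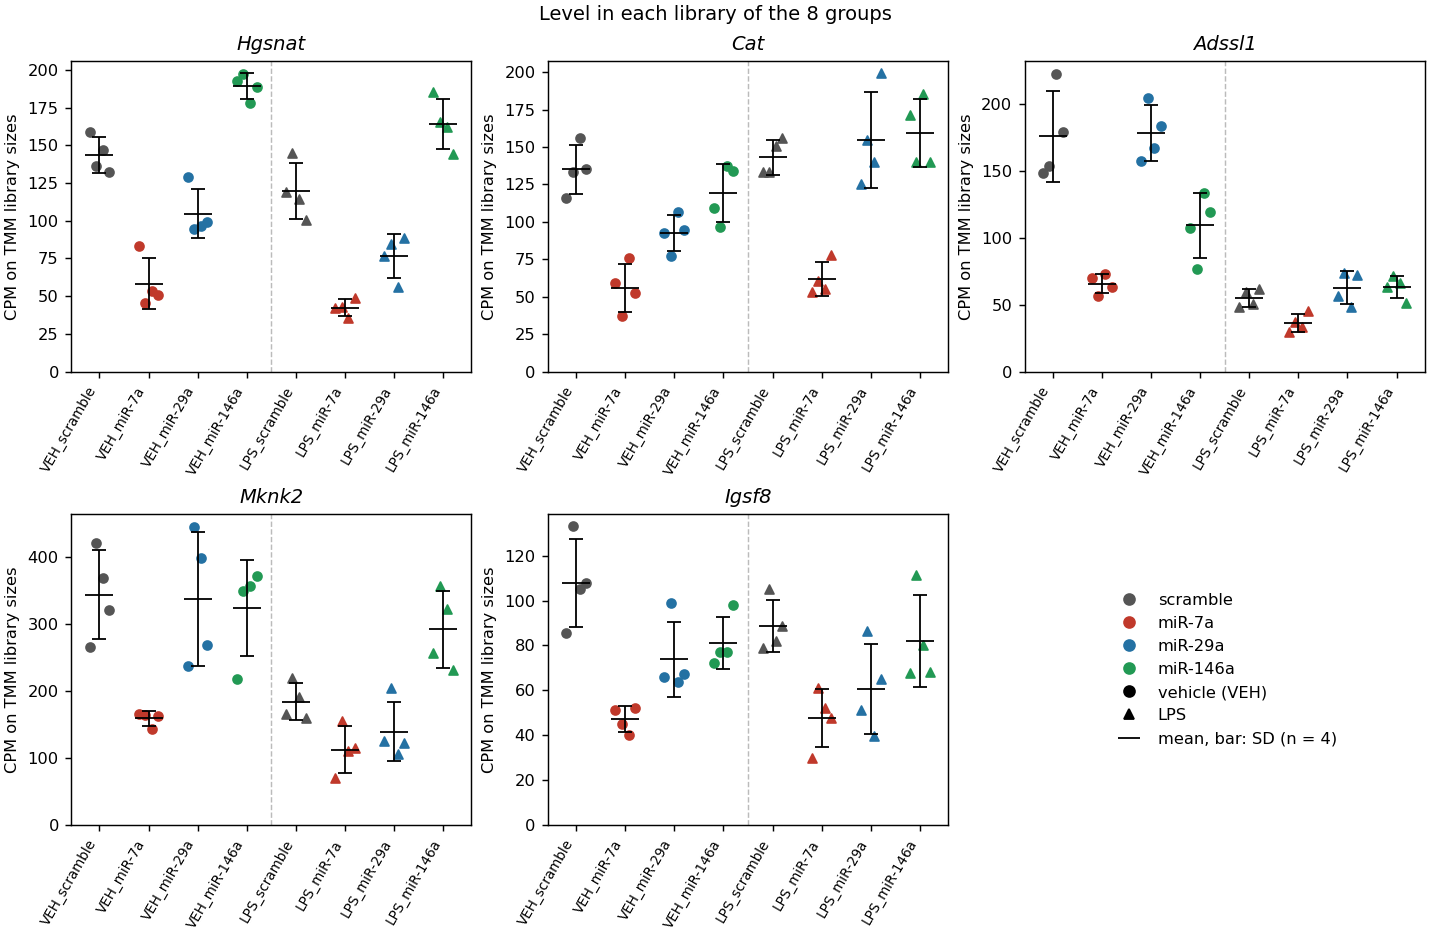
CPM of the 5 genes in each of the 32 libraries (points), with the mean and SD of each group of 4 (horizontal lines and bars), vehicle groups as circles and LPS groups as triangles. Under vehicle the red miR-7a points lie below the other 12 points of every gene, and under LPS they do so for Hgsnat, Cat and Adssl1 but mix with the blue miR-29a points for Mknk2 and Igsf8.

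Hgsnat had its lowest level in miR-7a-5p cells under both treatments and its highest in miR-146a-5p cells. Under vehicle, Hgsnat measured 159, 136, 147 and 132 CPM in VEH_scramble and 83.0, 45.6, 53.7 and 51.0 CPM in VEH_miR-7a. Under LPS the values were 119, 145, 114 and 101 CPM in LPS_scramble and 41.8, 43.0, 35.6 and 49.0 CPM in LPS_miR-7a. The miR-7a-5p and scramble libraries did not overlap under either treatment, and replicate 1 was the highest VEH_miR-7a library. With the other mimics, Hgsnat measured 129, 94.5, 96.7 and 98.9 CPM in VEH_miR-29a, and 193, 198, 178 and 189 CPM in VEH_miR-146a. Under LPS it measured 76.8, 84.8, 55.9 and 88.9 CPM in LPS_miR-29a, and 185, 166, 162 and 144 CPM in LPS_miR-146a. The miR-29a-3p libraries stood between those of miR-7a-5p and scramble under both treatments, without overlapping either. The log2 fold change of miR-7a-5p against scramble was -1.22 (SE 0.198) under vehicle, which leaves 42.9% of the scramble level, and -1.50 (SE 0.148) under LPS, which leaves 35.2%. From the highest mean to the lowest, the groups ran VEH_miR-146a (189 ± 8.45 CPM, SD, n = 4), LPS_miR-146a, VEH_scramble, LPS_scramble, VEH_miR-29a, LPS_miR-29a, VEH_miR-7a and LPS_miR-7a (42.3 ± 5.47 CPM, SD, n = 4). Neighbours in this order overlapped, except that VEH_miR-29a lay wholly above LPS_miR-29a.

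Cat was lower in miR-7a-5p cells than in every other group of the same treatment. Catalase messenger measured 116, 133, 156 and 136 CPM in VEH_scramble and 58.8, 36.8, 75.6 and 52.2 CPM in VEH_miR-7a. With LPS it measured 133, 133, 151 and 156 CPM in LPS_scramble and 53.2, 60.4, 55.3 and 77.9 CPM in LPS_miR-7a. No miR-7a-5p library reached a scramble library under either treatment. In the other mimic groups, Cat measured 92.4, 77.1, 107 and 94.8 CPM in VEH_miR-29a and 109, 96.9, 137 and 134 CPM in VEH_miR-146a. After LPS it measured 125, 155, 140.1 and 199 CPM in LPS_miR-29a and 171, 139.8, 185 and 140.3 CPM in LPS_miR-146a. The margin was narrow under vehicle, where the highest VEH_miR-7a library (75.6 CPM) lay just under the lowest VEH_miR-29a library (77.1 CPM), and wide under LPS, where the lowest library of another mimic was at 125 CPM. The log2 fold change against scramble was -1.25 (SE 0.209) under vehicle and -1.24 (SE 0.141) under LPS, or 42.1% and 42.5% of the scramble level. In order of mean level, Cat ran from LPS_miR-146a (159 ± 22.8 CPM, SD, n = 4) through LPS_miR-29a, LPS_scramble, VEH_scramble, VEH_miR-146a and VEH_miR-29a to LPS_miR-7a (61.7 ± 11.2 CPM, SD, n = 4) and VEH_miR-7a (55.9 ± 16.1 CPM, SD, n = 4), and every pair of neighbours overlapped. On library totals without TMM, LPS_miR-29a and LPS_miR-146a changed places at the top.

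Adssl1 was low wherever LPS or miR-7a-5p was present, and lowest where both were. The purine enzyme measured 149, 153, 222 and 179 CPM in VEH_scramble and 69.8, 56.8, 73.2 and 63.4 CPM in VEH_miR-7a. Under LPS it measured 48.5, 59.7, 50.2 and 61.9 CPM in LPS_scramble and 29.6, 37.1, 33.4 and 45.0 CPM in LPS_miR-7a. The groups did not overlap under either treatment, although under LPS the highest miR-7a-5p library and the lowest scramble library were close. With the other mimics, Adssl1 measured 157, 205, 167 and 183 CPM in VEH_miR-29a and 108, 76.5, 133 and 119.5 CPM in VEH_miR-146a. The LPS groups measured 56.6, 73.3, 48.2 and 72.4 CPM in LPS_miR-29a and 63.4, 71.1, 65.9 and 51.6 CPM in LPS_miR-146a. VEH_miR-146a thus lay between scramble and miR-7a-5p under vehicle without overlapping either, while under LPS the 3 groups other than miR-7a-5p overlapped. The log2 fold change of miR-7a-5p against scramble was -1.36 (SE 0.186) under vehicle and -0.63 (SE 0.151) under LPS, or 38.9% and 64.6% of the scramble level. The order of means was VEH_miR-29a (178 ± 20.9 CPM, SD, n = 4), VEH_scramble, VEH_miR-146a, VEH_miR-7a (65.8 ± 7.25 CPM, SD, n = 4), LPS_miR-146a, LPS_miR-29a, LPS_scramble and LPS_miR-7a (36.3 ± 6.57 CPM, SD, n = 4). In this order VEH_scramble, VEH_miR-146a and VEH_miR-7a lay apart from one another, as did LPS_scramble and LPS_miR-7a, and the other neighbours overlapped. On library totals without TMM, VEH_miR-7a moved from rank 4 to rank 7.

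Mknk2 was lower with miR-7a-5p under both treatments, and under LPS it was also low with miR-29a-3p. The kinase measured 266, 421, 368 and 320.2 CPM in VEH_scramble and 166, 164, 143 and 163 CPM in VEH_miR-7a. With LPS the values were 166, 219.5, 191 and 159.5 CPM in LPS_scramble and 69.0, 155, 110.0 and 114 CPM in LPS_miR-7a. The miR-7a-5p libraries lay below all scramble libraries in both cases, by a wide margin under vehicle and a narrow one under LPS. With the other mimics, Mknk2 measured 237, 445, 399 and 268 CPM in VEH_miR-29a and 217, 349, 357 and 372 CPM in VEH_miR-146a. Under LPS it measured 125, 204, 105 and 122 CPM in LPS_miR-29a and 257, 356, 322 and 232 CPM in LPS_miR-146a. Replicate 2 of the LPS_miR-7a group stood above 3 of the 4 LPS_miR-29a libraries, so that 9 of the 12 other LPS libraries were above all of the miR-7a-5p ones. The log2 fold change against scramble was -1.07 (SE 0.176) under vehicle and -0.77 (SE 0.210) under LPS, or 47.6% and 58.6% of the scramble level. In order of means, VEH_scramble (344 ± 66.3 CPM, SD, n = 4), VEH_miR-29a, VEH_miR-146a and LPS_miR-146a came first and overlapped one another as neighbours. LPS_scramble lay wholly below LPS_miR-146a, and LPS_scramble, VEH_miR-7a, LPS_miR-29a and LPS_miR-7a (112 ± 35.0 CPM, SD, n = 4) then overlapped as neighbours. On library totals without TMM, VEH_scramble moved from rank 1 to rank 3 and VEH_miR-29a came first, and VEH_miR-7a moved from rank 6 to rank 8, below LPS_miR-7a.

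Igsf8 was at its lowest in miR-7a-5p cells, at nearly the same level with and without LPS on TMM library sizes. EWI-2 messenger measured 85.5, 133, 105 and 108 CPM in VEH_scramble and 51.3, 44.8, 40.1 and 52.2 CPM in VEH_miR-7a. Under LPS, Igsf8 measured 78.7, 105, 81.9 and 88.7 CPM in LPS_scramble and 29.7, 60.8, 52.2 and 47.6 CPM in LPS_miR-7a. All miR-7a-5p libraries were below all scramble libraries of the same treatment. The other mimic groups measured 66.0, 98.9, 63.6 and 67.1 CPM of Igsf8 in VEH_miR-29a and 72.3, 76.8, 77.1 and 97.9 CPM in VEH_miR-146a. Under LPS the values were 51.1, 86.2, 39.5 and 65.1 CPM in LPS_miR-29a and 67.5, 111, 80.4 and 68.0 CPM in LPS_miR-146a. Here, too, the LPS_miR-29a libraries mixed with the LPS_miR-7a ones, and 10 of the 12 other LPS libraries were above all of those with miR-7a-5p. The log2 fold change against scramble was -1.15 (SE 0.196) under vehicle and -0.94 (SE 0.192) under LPS, or 45.0% and 52.1% of the scramble level. From VEH_scramble (108 ± 19.7 CPM, SD, n = 4) down to VEH_miR-7a (47.1 ± 5.71 CPM, SD, n = 4), every group overlapped the next. On library totals without TMM, the means were 37.0 ± 12.6 CPM in VEH_miR-7a and 53.2 ± 15.3 CPM in LPS_miR-7a (SD, n = 4).

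For all 5 genes together, miR-7a-5p libraries lay wholly below scramble libraries for 5 of 5 under vehicle and 5 of 5 under LPS, where 4.84% and 5.53% of all genes with usable values did so, and 1.51% did so under both treatments. The genes were chosen on these contrasts, so nothing further is read from these counts. The median log2 fold change over all genes was -0.013 under vehicle and 0.0066 under LPS.

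**Figure D3:**
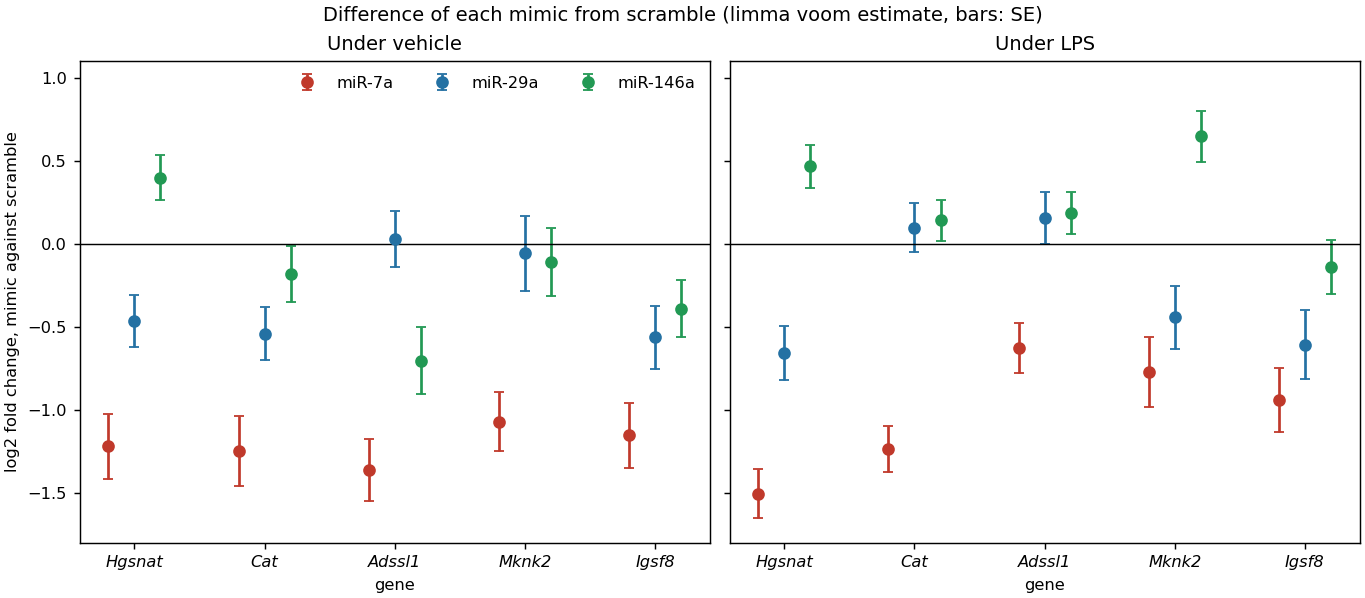
log2 fold change of each mimic against scramble (points) with its SE (bars), under vehicle on the left and LPS on the right. The red miR-7a points are the lowest of every gene in both panels, from -1.36 to -1.07 under vehicle and from -1.50 to -0.63 under LPS.

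The size of the difference was compared between treatments as LPS minus vehicle. It was smallest for Cat, at -0.01 (SE 0.244), and largest for Adssl1, at 0.72 (SE 0.236), where the difference from scramble was smaller under LPS. Hgsnat was at -0.32 (SE 0.241), Mknk2 at 0.29 (SE 0.284) and Igsf8 at 0.19 (SE 0.288). Single libraries moved these values: when 1 of the 16 was left out, Mknk2 ran from 0.13 (without LPS_miR-7a replicate 2) to 0.51 (without LPS_miR-7a replicate 1), Igsf8 from 0.07 to 0.39 without the same libraries, Hgsnat from -0.41 to -0.03 and Cat from -0.15 to 0.14, while Adssl1 stayed between 0.61 and 0.81. Without VEH_miR-7a replicates 2 to 4, which leaves replicate 1 as the only library of its group, assumed to vary like the other libraries of the fit, the difference under vehicle was -0.79 (SE 0.291) for Hgsnat, -1.19 (SE 0.302) for Cat, -1.32 (SE 0.324) for Adssl1, -1.04 (SE 0.334) for Mknk2 and -1.06 (SE 0.328) for Igsf8. Of these vehicle differences only that of Hgsnat moved by more than 1.5 times. The LPS minus vehicle value then moved to -0.72 (SE 0.267) for Hgsnat and 0.10 (SE 0.381) for Igsf8. Without replicate 1 instead, Hgsnat was at -1.47 (SE 0.210) under vehicle and -0.03 (SE 0.242) for LPS minus vehicle. With structural RNA genes left out of the table and all libraries kept, the vehicle differences were -1.22 for Hgsnat (SE 0.202), -1.24 for Cat (SE 0.211), -1.36 for Adssl1 (SE 0.191), -1.07 for Mknk2 (SE 0.181) and -1.15 for Igsf8 (SE 0.202), nearly as with them.

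Set against the other mimics in place of scramble, miR-7a-5p libraries were wholly below miR-29a-3p libraries for 5 of 5 genes under vehicle (6.01% of all genes) and 3 of 5 under LPS (5.38%). The log2 fold change under vehicle ran from -1.40 (SE 0.150) for Adssl1 to -0.60 (SE 0.190) for Igsf8. Under LPS it ran from -1.32 (SE 0.181) for Cat to -0.32 for both Mknk2 (SE 0.254) and Igsf8 (SE 0.263), the 2 genes whose groups overlapped. Against miR-146a-5p, 5 of 5 were wholly lower under vehicle (6.72%) and 5 of 5 under LPS (5.80%). The widest gap there was Hgsnat under LPS, at -1.98 (SE 0.140), or 25.3% of the miR-146a-5p level, and the narrowest was Adssl1 under vehicle, at -0.66 (SE 0.202). These contrasts share the miR-7a-5p libraries with those above.

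The other two mimics were tested against scramble, and these tests share the scramble libraries with the choice of the genes. A gene was called at an adjusted p below 0.05 over all genes tested and a log2 fold change beyond 0.3 in either direction. miR-29a-3p was below scramble for Hgsnat under LPS, with a log2 fold change of -0.66 (SE 0.164, limma voom, adjusted p = 0.0440), where 4.69% of 13313 genes were called. With the replicate number as a block, used because same-numbered libraries deviated together in this contrast, Hgsnat remained called (adjusted p = 0.00220), and Mknk2 at -0.44 (SE 0.109, adjusted p = 0.0129) and Igsf8 at -0.59 (SE 0.117, adjusted p = 0.00351) were called too, where the block called 19.1% of all genes. Without the block, Mknk2 had an adjusted p of 0.203 and Igsf8 of 0.120 (limma voom). The Hgsnat call was lost when any of the 4 LPS_scramble libraries or LPS_miR-29a replicate 1 or 3 was left out, with adjusted p from 0.0762 to 0.102. Leaving out LPS_miR-29a replicate 2 kept that call and added Mknk2 and Igsf8, so that 3 genes were called, where that fit called 5.19% of all genes, and the 6 fits that lost the call 1.21% to 2.65%. Cat and Adssl1 under LPS were at 0.10 (95% interval -0.23 to 0.42) and 0.15 (95% interval -0.19 to 0.49). The summed microglia and macrophage markers ran from 2158 to 2984 CPM in LPS_miR-29a and from 2624 to 3537 CPM in LPS_scramble, and their part in these differences was not tested.

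Under vehicle, none of the 5 genes was called for miR-29a-3p against scramble, a contrast in which 1 gene in all was called (0.00860% of 11622) and 1197 (10.3%) had an unadjusted p below 0.05, 3 of the 5 genes among them. The estimates were -0.46 for Hgsnat (95% interval -0.80 to -0.12), -0.54 for Cat (-0.89 to -0.20) and -0.56 for Igsf8 (-0.98 to -0.15), with adjusted p of 0.336, 0.292 and 0.336 (limma voom). Adssl1 and Mknk2 were at 0.03 (95% interval -0.34 to 0.39) and -0.06 (95% interval -0.55 to 0.43). The block raised the number of genes called from 1 to 71 (0.611%) and called none of the 5, with adjusted p from 0.0589 for Igsf8 upwards (limma voom).

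miR-146a-5p was above scramble for Mknk2 under LPS, with a log2 fold change of 0.65 (SE 0.151, limma voom, adjusted p = 0.0498), where 2.37% of 12631 genes were called. This call stood at the threshold: it was lost when any 1 of 7 of the 8 libraries was left out, all but LPS_miR-146a replicate 4, with adjusted p from 0.0520 to 0.169. With the block, where same-numbered libraries deviated together as well, Mknk2 had an adjusted p of 0.000696 and Hgsnat was called higher, at 0.44 (SE 0.0850, adjusted p = 0.00882), against 0.47 (SE 0.128, adjusted p = 0.0837) without it, and 14% of all genes (1764 of 12631) were called. Under vehicle none of the 5 was called (1.95% of 11721 genes were, limma voom). Adssl1 was closest, at -0.70 (SE 0.203, adjusted p = 0.0715), and was called without VEH_scramble replicate 1 (adjusted p = 0.0419), where 10.1% of all genes were. Hgsnat stood at 0.40 (95% interval 0.10 to 0.69, adjusted p = 0.101) and Igsf8 at -0.39 (95% interval -0.77 to -0.02, adjusted p = 0.181).

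The response of the 5 genes to LPS itself was tested within each mimic. Adssl1 fell in all 4, and Mknk2 fell in scramble and miR-29a-3p cells, while Cat rose in miR-29a-3p cells. This made 2 of the 5 genes called in scramble cells, 1 in miR-7a-5p cells, 3 in miR-29a-3p cells and 1 in miR-146a-5p cells, where 17.8%, 6.63%, 26.5% and 4.38% of all genes tested were called. The mean share of counts in structural RNA genes was lower under LPS with each mimic. It ran from 6.73% to 11.9% in VEH_scramble and 2.93% to 5.79% in LPS_scramble, and from 4.31% to 38.9% and 2.99% to 3.73% in the 2 miR-7a-5p groups, without overlap. For miR-29a-3p it ran from 4.42% to 18.8% under vehicle and 2.94% to 4.72% under LPS, and for miR-146a-5p from 3.81% to 7.24% and 2.64% to 5.81%, with overlap in both. The summed microglia and macrophage markers of miR-29a-3p cells ran from 2735 to 3440 CPM under vehicle and 2158 to 2984 CPM under LPS, and their part in the LPS differences was not tested. The miR-29a-3p and miR-146a-5p tests share no library with the contrasts of miR-7a-5p against scramble, and the other 2 do. Adssl1 had a log2 fold change of -1.64 (SE 0.163, adjusted p = 9.7e-05) in scramble cells, -0.93 (SE 0.176, adjusted p = 0.00901) in miR-7a-5p cells, -1.52 (SE 0.161, adjusted p = 6.5e-05) in miR-29a-3p cells and -0.75 (SE 0.178, adjusted p = 0.0308) in miR-146a-5p cells (limma voom). With structural RNA genes left out of the table, Adssl1 was at -1.66, -0.93, -1.54 and -0.74 in the same order and was called in all 4. In each of the 4 mimic groups, all LPS libraries of Adssl1 were below all vehicle libraries, as they were for 11.2%, 5.98%, 12.8% and 5.11% of all genes in the same order. Without VEH_miR-7a replicates 2 to 4, the value in miR-7a-5p cells was -0.95 (SE 0.280, adjusted p = 0.243, limma voom), close to that with them. In that fit 1 library stands for VEH_miR-7a and is assumed to vary like the LPS_miR-7a libraries, so the higher adjusted p does not bear on the left-out libraries. The miR-146a-5p call was lost when any 1 of 7 of its 8 libraries was left out, all but VEH_miR-146a replicate 2, with values from -0.92 to -0.61 over all 8 and adjusted p from 0.0520 to 0.126 over the 7 (limma voom).

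**Figure D4:**
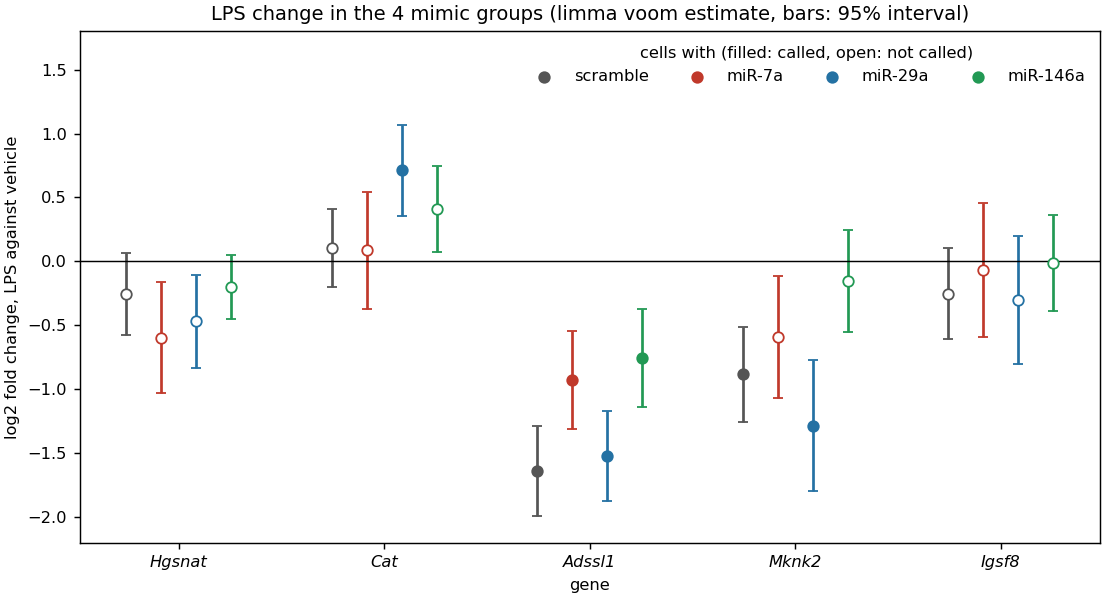
log2 fold change of LPS against vehicle for the 5 genes within each mimic group (points) with 95% intervals (bars). Filled points passed the test and open points did not. The 4 Adssl1 points are filled and lie between -1.64 and -0.75, and the Mknk2 point of miR-146a-5p cells, at -0.15, is the highest of that gene.

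Mknk2 fell by 0.88 on the log2 scale in scramble cells (SE 0.171, adjusted p = 0.00527) and fell by 1.28 in miR-29a-3p cells (SE 0.236, adjusted p = 0.00216, limma voom). In miR-146a-5p cells it stood at -0.15 (95% interval -0.55 to 0.24, adjusted p = 0.721), and in miR-7a-5p cells at -0.59 (95% interval -1.07 to -0.12, adjusted p = 0.143), or from -0.75 to -0.38 when 1 library was left out, the latter without LPS_miR-7a replicate 1. Cat rose by 0.71 in miR-29a-3p cells (SE 0.164, adjusted p = 0.00785), with all LPS libraries above all vehicle libraries, as for 15.0% of all genes. Cat stood at 0.41 in miR-146a-5p cells (95% interval 0.07 to 0.74, adjusted p = 0.177, limma voom), at 0.10 in scramble cells (95% interval -0.20 to 0.41) and at 0.09 in miR-7a-5p cells (95% interval -0.37 to 0.55). Its libraries were also apart in miR-146a-5p cells, by a narrow margin. The lowest LPS library was at 139.8 CPM and the highest vehicle library at 137.2 CPM, and the share of all genes apart in this way was not counted there. Hgsnat was at -0.47 in miR-29a-3p cells (SE 0.167, adjusted p = 0.0576, limma voom) and passed with the replicate block, same-numbered libraries having deviated together in this contrast (adjusted p = 0.0138), where 41.4% of all genes were called with it. It also passed with structural RNA genes left out (adjusted p = 0.0451) and without LPS_miR-29a replicate 2 or 4 (adjusted p = 0.0481 and 0.0451, limma voom), and not without any other 1 library. In scramble, miR-7a-5p and miR-146a-5p cells it was at -0.26 (95% interval -0.57 to 0.06), -0.60 (95% interval -1.03 to -0.16, adjusted p = 0.105, limma voom) and -0.20 (95% interval -0.45 to 0.05). The Hgsnat value of miR-7a-5p cells depended on the VEH_miR-7a libraries, at -0.30 (SE 0.213, adjusted p = 0.494) without replicate 1 (limma voom) and -0.98 (SE 0.255) without replicates 2 to 4. Igsf8 was not called in any of the 4, with values from -0.30 to -0.01 and a widest 95% interval of -0.59 to 0.46, in miR-7a-5p cells. Without VEH_miR-7a replicates 2 to 4, the LPS change in miR-7a-5p cells was 0.06 for Cat (SE 0.285), -0.62 for Mknk2 (SE 0.373) and -0.14 for Igsf8 (SE 0.372), again with 1 library in the vehicle group.

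Whether the LPS response differed between mimics was tested as a difference of differences, added after these values were seen. Between miR-146a-5p and miR-29a-3p cells, which share no library with the contrasts of miR-7a-5p against scramble, the LPS change of Mknk2 differed by 1.16 (SE 0.324, adjusted p = 0.0860) and that of Adssl1 by 0.80 (SE 0.246, adjusted p = 0.111), and neither was called, where 1.03% of 12438 genes were (limma voom). With the replicate number as a block both were called, Mknk2 at 1.17 (SE 0.223, adjusted p = 0.00426) and Adssl1 at 0.82 (SE 0.241, adjusted p = 0.0358), but so were 12.3% of all genes, and same-numbered libraries did not all deviate together in miR-146a-5p cells (lowest correlation 0.0452). Against scramble cells, the LPS change in miR-146a-5p cells was higher by 0.87 for Adssl1 (SE 0.246, adjusted p = 0.352) and by 0.73 for Mknk2 (SE 0.259, adjusted p = 0.372), in a contrast that called 0 genes by limma voom and had 1376 at an unadjusted p below 0.05. The LPS change of Cat in miR-29a-3p cells exceeded that in scramble cells by 0.60 (SE 0.210, adjusted p = 0.611, limma voom), where 0.0162% of 12358 genes were called.

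The pathways that the 5 genes belong to were examined through the other genes of each, in miR-7a-5p against scramble. Under vehicle 0 of 90 tested genes of the 6 lists were called by limma voom, where 0.0450% of all genes were, and 7 had an unadjusted p below 0.05, as did 12.4% of all genes. Without VEH_miR-7a replicate 1 these numbers were 0 and 7 of 90, while the number called over all genes rose from 5 to 241 (2.16%) and 14.4% had an unadjusted p below 0.05. Without replicates 2 to 4, in a fit with 1 library of that group, they were 0 and 0, and 3 of 12450 genes were called and 3.86% had an unadjusted p below 0.05. Under LPS, where 2.69% of all genes were called, 6 of 94 were. Same-numbered libraries deviated together there, and with the replicate number as a block 25 of the 94 were called, 14 higher and 11 lower, where 15.5% of all genes were, and these 25 included the 6. When 1 library was left out, 0 to 5 of the 94 were called. Without the block, the heparan sulfate list of Hgsnat had 2 of 10 called, both higher. Hpse, which encodes heparanase, the enzyme that cuts heparan sulfate chains, measured 12.5 ± 1.01 CPM in LPS_miR-7a and 7.40 ± 0.805 CPM in LPS_scramble (SD, n = 4), which is a log2 fold change of 0.74 (SE 0.156, limma voom, adjusted p = 0.0330). Sumf1, the factor that activates sulfatases, measured 74.9 ± 3.64 and 46.4 ± 2.52 CPM (SD, n = 4), or 0.68 as a log2 fold change (SE 0.109, limma voom, adjusted p = 0.0122). The median of the 10 was 0.15, against 0.0066 for all genes. The other genes of this list, which include the lysosomal enzymes Naglu and Sgsh, did not pass without the block.

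Around Cat, 1 of 14 tested genes of peroxide and superoxide removal was called under LPS. This was Sod1, the cytosolic superoxide dismutase, which fell by 0.71 on the log2 scale (SE 0.163, limma voom, adjusted p = 0.0451), from 127 ± 21.2 to 77.9 ± 12.6 CPM (SD, n = 4). None of 26 tested peroxisome genes was called by limma voom, though 6 had an unadjusted p below 0.05, as did 17.4% of all genes, and the medians of these 2 lists were -0.05 and -0.01. Around Adssl1, 2 of 16 tested genes of purine synthesis and interconversion were called, in opposite directions, with a median of 0.08. Ampd3, an AMP deaminase, which turns AMP back into IMP, rose by 0.98 (SE 0.199, limma voom, adjusted p = 0.0295), from 15.0 ± 3.64 to 30.9 ± 6.71 CPM (SD, n = 4). Impdh2, the enzyme of the first step from IMP to GMP, fell by 0.58 (SE 0.133, limma voom, adjusted p = 0.0457), from 269 ± 35.8 to 181 ± 19.8 CPM (SD, n = 4). Around Mknk2, 1 of 15 tested genes of the MNK kinases and the cap-binding complex was called, with a median of -0.02. It was Eif4ebp1, whose product binds eIF4E and restrains translation, and which fell by 0.49 (SE 0.115, limma voom, adjusted p = 0.0487), from 64.5 ± 4.75 to 45.9 ± 2.44 CPM (SD, n = 4). Around Igsf8, none of 13 tested EWI proteins and tetraspanins was called by limma voom, 3 had an unadjusted p below 0.05, and the median was 0.14. With the block, the number called was 3 of 10 for heparan sulfate breakdown, all higher, with Sgsh the gene added at 0.61 (SE 0.126, limma voom, adjusted p = 0.00497). It was 4 of 14 for peroxide and superoxide removal, 2 in each direction, and 3 of 26 for the peroxisome, all lower. It was 9 of 16 for purine synthesis and interconversion, 6 higher and 3 lower, 4 of 15 for the MNK kinases and the cap-binding complex, 1 higher and 3 lower, and 2 of 13 for EWI proteins and tetraspanins, both higher. Without the block the 6 called genes were sensitive to single libraries: of the 8 fits that left out 1 library, Sumf1 was called in 7, Hpse in 2, Sod1, Ampd3 and Impdh2 in 1 each, and Eif4ebp1 in 0 (adjusted p from 0.0522 to 0.146, limma voom). These lists were drawn up with results of these data known, and their tests share libraries with the contrast that chose the 5 genes.

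The patterns of the 5 genes over the 32 libraries were alike to different degrees. As a description, Pearson's r of log2 CPM over the 32 libraries, which share 8 groups and so are not independent, ran from 0.26 for Cat with Adssl1 to 0.79 for Mknk2 with Igsf8. Among 12414 genes, those most like Hgsnat were Cmtm3 (r = 0.878), Tpp1, a lysosomal peptidase (r = 0.849), and Mknk1, the paralog of Mknk2 (r = 0.843). Genes like Cat included Tmed9 (r = 0.823) and Pim1 (r = 0.806). Adssl1 was most like Khk, ketohexokinase (r = 0.927), Tspan32 (r = 0.926) and Sardh, sarcosine dehydrogenase (r = 0.908). Mknk2 was most like Rab11fip5 (r = 0.911), Ehbp1l1 (r = 0.906) and Slc39a1, a zinc transporter (r = 0.896), and Igsf8 was most like Unc93b1, which escorts nucleic-acid-sensing Toll-like receptors (r = 0.8998), Stxbp2 (r = 0.856) and Mavs, an adaptor of antiviral signalling (r = 0.853). Every one of these r values was taken over the same 32 libraries of unequal depth, and no p is given for them.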

How the data were processed

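Total RNA was extracted with TRIzol, depleted of ribosomal RNA (RiboCop), made into CORALL libraries and sequenced. Per the labels and the study's methods, the authors aligned and quantified reads on GRCm38 with nf-core rnaseq and compared groups with limma and edgeR. The aligner, counter and annotation of these libraries are not given in the sources used here. The labels place LPS before transfection, whereas the study's phagocytosis assay has the reverse order, and some labels carry a mouse age that cannot belong to a cell line. The deposited values are estimated counts per gene (expected counts), of which 28.5% of the 590874 above 0 had lost their decimal mark. It was restored by choosing, among 4 readings of each value, the one most probable given the gene's other libraries. The posterior was below 0.9 for 0.90% of the values above 0. A gene with such a value in any library of a fit was left out of that fit. Over all 32 libraries, 12415 of the 13817 genes that passed the filter had no such value. Uncertain values stayed in the library sizes behind the CPM levels. Of the 160 values of the 5 genes, 22 were restored (Mknk2 13, Igsf8 8, Hgsnat 1), and their lowest posterior was 0.995 after rounding. In the table, 45143 of 45706 gene identifiers matched GENCODE M21, and no 2 libraries were identical.

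The tests used limma voom 3.58.1 after filterByExpr and TMM in edgeR 4.0.16 (R 4.3.3), with 1 fit of 8 libraries per pair of groups, Benjamini-Hochberg adjustment over all genes tested, and calls at an adjusted p below 0.05 and a log2 fold change beyond 0.3. The differences of LPS changes used 16 libraries. Estimated counts were rounded for the edgeR quasi-likelihood test and DESeq2 1.42.0, which were alternatives. Only the restoration and the fit of LPS_scramble against VEH_scramble without the block were tried on simulated data. Replicates varied there independently of their number. Named genes were the 5, the 3 genes most correlated with each, up to 3 called genes of each pathway list, and the cell type markers, of which 1 gene correlated with Cat is not reported here. The 5 genes and all lists were chosen with earlier results of these data known. Same-numbered libraries deviated together (all 4 correlations above 0.1) for LPS against vehicle in scramble and miR-29a-3p cells, miR-29a-3p against scramble under both treatments, and miR-146a-5p and miR-7a-5p against scramble under LPS, so the numbers were taken to pair libraries there. Counts set the precision: 3 counts were worth 0.145 to 2.48 CPM.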

Additional observations from a re-analysis of the deposited data

Results flagged for a closer look

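Groups of 4 libraries were screened for a library whose gap to its nearest neighbour made up most of the range of its group (Dixon's test at the 95% level). Of 56 groups screened, 5 had such a library, and chance gives about 1 in 20. Hgsnat in VEH_miR-29a replicate 1 was at 129.2 CPM, above the other libraries of its group. Mknk2 in VEH_miR-7a replicate 3 was at 142.9 CPM, below the others, in a group whose other libraries lay close together. Mknk2 in VEH_miR-146a replicate 1 was at 217 CPM, below the others. Igsf8 in VEH_miR-29a replicate 2 was at 98.92 CPM, above the others. The share of counts in structural RNA genes was 4.306% in VEH_miR-7a replicate 1, far below replicates 2 to 4 of its group, and it was the library with the highest Hgsnat level in that group. The part of library composition in these values was not tested.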

How the results depend on the processing

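The limits lie in the shallow VEH_miR-7a libraries, in calls close to the threshold, and in decimal marks that had to be restored. With the values as deposited, in which lost decimal marks inflate single values, 0 of the 5 genes were called in the 6 tested comparisons with vehicle or scramble that had called any. The log2 fold changes of miR-7a-5p against scramble under LPS then had the opposite sign for Hgsnat (0.7502), Mknk2 (2.044) and Igsf8 (1.854), that of Igsf8 under vehicle was -3.528, and LPS minus vehicle was 2.138 for Hgsnat, again with the opposite sign, 3.304 for Mknk2 and 5.017 for Igsf8. On library totals without TMM, miR-7a-5p against scramble under vehicle was -1.501 for Hgsnat, -1.605 for Adssl1, -1.32 for Mknk2 and -1.384 for Igsf8, and LPS minus vehicle for Hgsnat was -0.06773. Without VEH_miR-7a replicates 2 to 4, Hgsnat was at -0.7902 under vehicle and -0.7248 for LPS minus vehicle, and when 1 library was left out the latter ran from -0.4145 to -0.03112. For LPS against vehicle, the number called in miR-7a-5p cells was 2 with the replicate block (Mknk2 added, adjusted p = 0.0451, limma voom) and 2 with all 32 libraries in 1 fit (Hgsnat added, 8.12% of all genes called). It was 0 on library totals without TMM, where 17.4% of all genes were called. The fit without VEH_miR-7a replicates 2 to 4 has 1 library in that group, so its calls say nothing of stability. In miR-29a-3p cells it was 4, with Hgsnat added, with the block (41.4% of all genes called). It was also 4, with Hgsnat added, with median-ratio size factors, DESeq2 or all 32 libraries in 1 fit. The same held with 1 set of library sizes in the restoration or structural RNA genes left out. Apart from the block, these settings called 26.4% to 30.4% of all genes, against 26.5% without any of them. The number was 3 to 4 when 1 library was left out, where 17.4% to 29.8% of all genes were called. In miR-146a-5p cells it was 2 with the replicate block (Cat added, adjusted p = 0.0474, limma voom), 0 on library totals (4.74% of all genes called), and 0 to 1 when 1 library was left out. For miR-29a-3p under LPS it was 3 with the block (19.1% of all genes called), 0 on library totals (4.83%), and 0 to 3 when 1 library was left out. For miR-146a-5p under vehicle it was 1 (Adssl1) with the block, 2 (Adssl1 and Hgsnat) with DESeq2, which called 10.6% of all genes, 1 (Adssl1) in the fit of all libraries, which called 12.4%, and 0 to 1 when 1 was left out. For miR-146a-5p under LPS it was 2 with the block and with DESeq2 (5.22% of all genes called), 0 on library totals, with limma-trend, with edgeR quasi-likelihood, in the fit of all libraries and with 1 set of library sizes in the restoration, and 0 to 1 when 1 library was left out. For the LPS change in miR-146a-5p minus miR-29a-3p cells it was 2 with the block. Except for the values as deposited, the causes were not tested. The fits without VEH_miR-7a replicates 2 to 4 or without structural RNA genes, the differences of LPS changes, and the block and left-out libraries for the pathway lists were chosen after seeing the data.

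Same-numbered libraries did not all deviate together in every contrast. The exceptions were LPS against vehicle in miR-7a-5p and miR-146a-5p cells, and miR-146a-5p and miR-7a-5p against scramble under vehicle. The lowest correlation in these was 0.0815, 0.0452, 0.0471 and -0.0683, and 2, 4, 3 and 3 of the 4 numbers correlated best with their own. Such correlations cannot settle whether the numbers pair libraries there. The column headers use the same 4 replicate numbers in all 8 groups, and the study counts replicates of its BV-2 experiments as separate experiments. Over all genes, the block raised the number called from 2178 to 3700 for LPS in scramble cells, from 3243 to 5055 for LPS in miR-29a-3p cells, from 787 to 1141 (9.62% of those tested) for LPS in miR-7a-5p cells, from 530 to 1097 (9.06%) for LPS in miR-146a-5p cells, from 229 to 1444 (12.3%) for miR-146a-5p under vehicle, from 128 to 1532 for the LPS change in miR-146a-5p minus miR-29a-3p cells, and from 625 to 2549, 299 to 1764 and 350 to 2018 for miR-29a-3p, miR-146a-5p and then miR-7a-5p against scramble under LPS. Of the single tested differences, over all alternatives, 758 kept their side of the threshold, of which 35 had the opposite sign, never with a call, while 24 passed it newly and 38 lost it. Of the described differences, 335 moved by less than 1 SD, 11 moved further and 4 moved further with a change of sign.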
